A study of Mus musculus with 32 samples.

Results

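The genes described here are 10 of the 22329 gene symbols in the deposited table, taken by name. 7 mark an epithelial state: Epcam, Cdh1, Krt7, Krt8, Krt18, Krt19 and Sprr1b. The other three, Cdh2, Vim and Zeb1, mark a mesenchymal state. All were followed in MC38, a mouse colon adenocarcinoma cell line, comparing the parental cells with cells labelled as resistant to anti-PD-1. Antibodies of that kind block an inhibitory receptor of T cells. The 32 libraries were made from poly(A) RNA of 13 parental tumors and 12 resistant tumors grown under the skin of C57BL6/J mice that received no treatment, and of 2 parental and 5 resistant cultures without treatment. Each line is represented by cells of 1 name, so a difference between lines is a difference between these 2 cell populations. The labels do not say that the cultures were separate, so the spread behind their p-values may be technical alone. Tumors and cultures carry different series of library names, and this split cannot be told apart from growth in a mouse. Values are TPM, a length-scaled share of each library's transcripts that sums to the same total in every library, and the read depth behind them is unknown.

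Epithelial cells hold together through E-cadherin and through junctions whose proteins anchor keratin filaments. Mesenchymal cells instead build filaments of vimentin and often carry N-cadherin. Zeb1 is a zinc finger repressor that binds paired E-boxes, short DNA motifs in the promoters of epithelial genes, and its loss or gain is a standard marker of movement between both states, called the epithelial-mesenchymal transition or EMT.

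The Zeb1-type E-box CAGGTG, searched on both strands (its reverse complement is CACCTG), is shown here because 4 of the 6 members found in RefSeq's promoter set (build GRCm38.p6) hold it in the 250 bases before the gene's start. These are Epcam at chr17:87635729-87635978 on the plus strand, Krt7 at chr15:101412153-101412402 on the plus strand, Krt8 at chr15:102004343-102004592 on the minus strand, and Krt18 at chr15:102027966-102028215 on the plus strand. Each sequence is written 5′ to 3′ on the gene's own strand, and capitals mark the E-box.
Epcam: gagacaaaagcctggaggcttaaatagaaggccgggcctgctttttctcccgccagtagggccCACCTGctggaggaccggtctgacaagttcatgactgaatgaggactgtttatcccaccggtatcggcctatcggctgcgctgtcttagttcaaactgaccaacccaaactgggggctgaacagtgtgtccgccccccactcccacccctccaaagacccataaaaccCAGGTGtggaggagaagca
Krt7: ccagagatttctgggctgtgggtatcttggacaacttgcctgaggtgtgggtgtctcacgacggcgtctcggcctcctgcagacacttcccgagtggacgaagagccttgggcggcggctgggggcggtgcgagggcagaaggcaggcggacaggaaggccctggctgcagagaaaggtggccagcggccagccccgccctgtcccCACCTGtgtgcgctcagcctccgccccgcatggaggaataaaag
Krt8: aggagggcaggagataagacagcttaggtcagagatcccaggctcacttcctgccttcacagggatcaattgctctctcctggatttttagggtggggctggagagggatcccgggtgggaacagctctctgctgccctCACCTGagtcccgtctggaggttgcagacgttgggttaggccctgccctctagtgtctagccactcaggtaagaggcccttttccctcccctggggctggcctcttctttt
Krt18: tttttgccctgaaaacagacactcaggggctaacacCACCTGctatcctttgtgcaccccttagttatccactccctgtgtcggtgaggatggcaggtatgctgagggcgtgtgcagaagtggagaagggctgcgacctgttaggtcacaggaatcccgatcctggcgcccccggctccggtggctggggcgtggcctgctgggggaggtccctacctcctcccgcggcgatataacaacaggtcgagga
The Epcam window held 2 copies, beginning 187 and 19 bases before the start, while Krt7, Krt8 and Krt18 held 1 each, at 44, 111 and 214 bases. The windows of Vim and Sprr1b held no match. Of all 32851 promoter windows of this length, 17.2% held the motif. The looser form CANNTG, which contains the first, was in 5 of the 6 members' windows and in 66.2% of all. Cdh1, Krt19, Cdh2 and Zeb1 were not in the set. A match describes the letters of these windows and shows no binding.

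Apart from Sprr1b in parental culture, the 7 epithelial genes were low in all 4 groups. Of the 224 values of the 7 epithelial genes, 184 (82.1%) were below 1 TPM and 78 were listed at 0. Apart from Sprr1b, the highest single value was 2.99 TPM, for Krt19 in 1 parental tumor. Vim was never below 1989 TPM in the same libraries. Of 17 genes fixed as markers of intestinal epithelium, 1 had a group mean of 1 TPM or more, Krt20 in parental culture, at 2.75 ± 0.97 TPM (SD, n = 2). Their summed level was 2.29 to 16.5 TPM in parental tumors, 1.67 to 12.1 in resistant tumors, 2.25 to 4.27 in parental culture and 0.0597 to 1.62 in resistant culture. The markers of the labelled tissue were thus near absent.

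**Figure D1:**
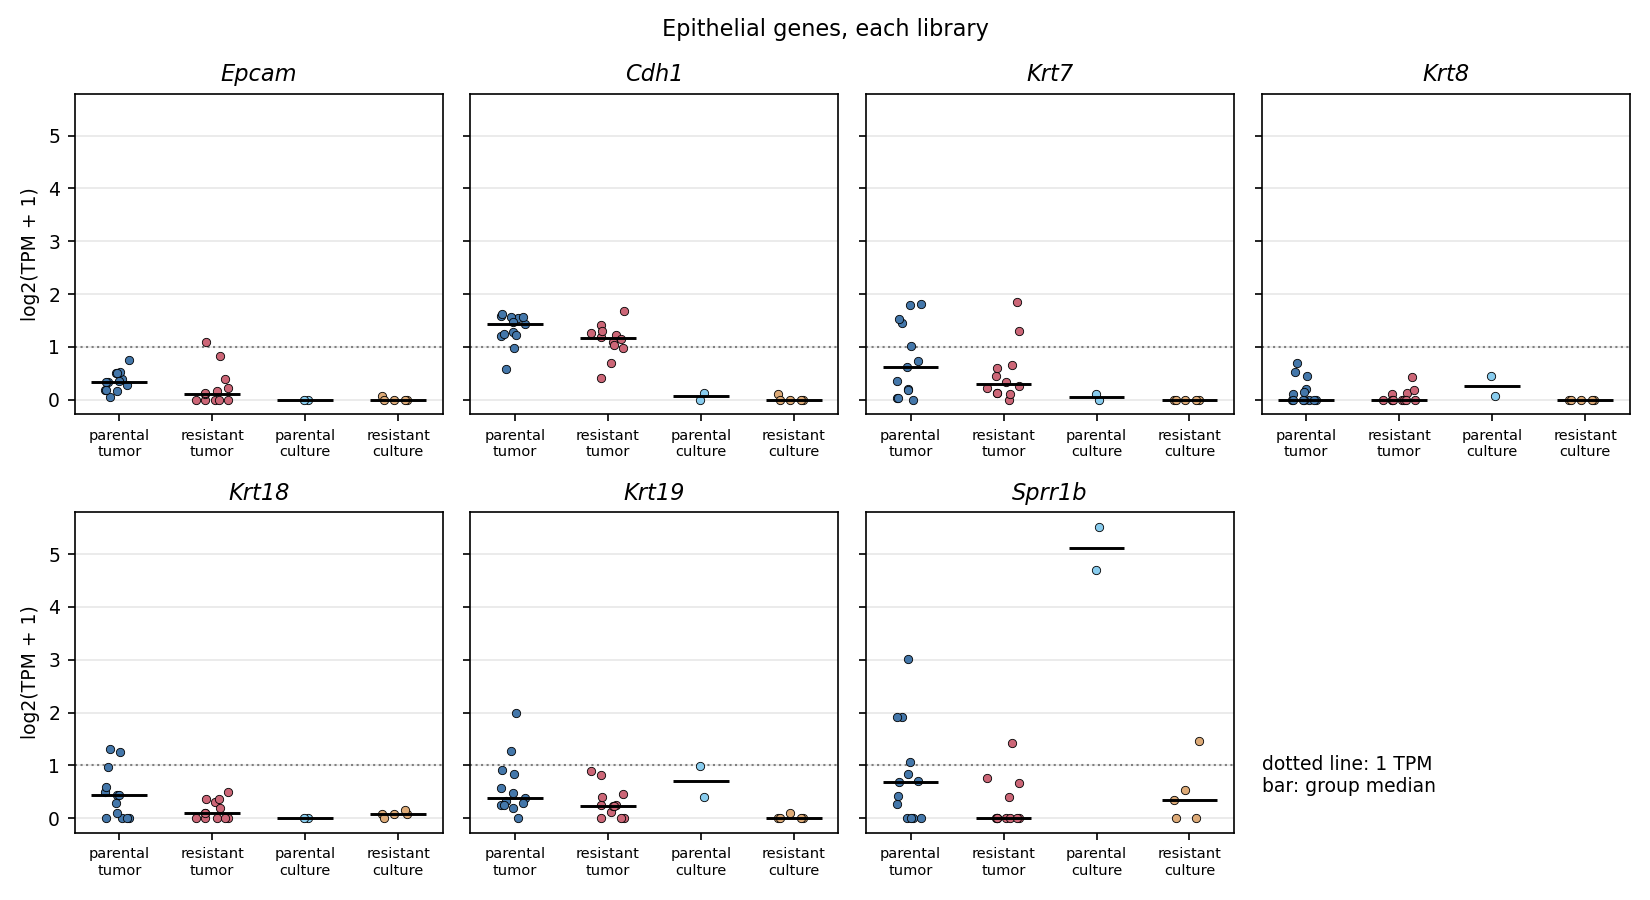
Epithelial genes in every library, as log2(TPM + 1). Points are libraries, bars are group medians and the dotted line is 1 TPM. Most points lie under the line. The highest are Sprr1b in the 2 parental cultures, at 44.9 and 24.8 TPM, followed by Sprr1b in 1 parental tumor, at 7.06 TPM.

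Epcam encodes the epithelial cell adhesion molecule, a surface protein used to sort carcinoma cells. It was listed at 0 in both parental cultures and in 4 of the 5 resistant cultures, the fifth holding 0.0520 TPM. In parental tumors it ran from 0.0367 through a median of 0.268 to 0.680 TPM, and no tumor was at 0. In resistant tumors it ran from 0 through a median of 0.0838 to 1.13 TPM, with 5 of 12 tumors at 0 and 1 at or above 1 TPM. The 2 ranges overlapped throughout, and the gene was too low to be tested.

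Cdh1 encodes E-cadherin, the adhesion receptor of the epithelial adherens junction. Parental cultures held 0.0904 and 0 TPM, and resistant cultures 0, 0.0839, 0, 0, and 0 TPM. In parental tumors it ran from 0.503 through a median of 1.71 to 2.07 TPM, and in resistant tumors from 0.323 through 1.25 to 2.20 TPM. Every tumor exceeded every culture of its own line. On the log2(TPM + 1) scale tumors were higher by 1.27 ± 0.27 (SE) in the parental line, with an adjusted p of 0.00185 by limma, and by 1.10 ± 0.18 in the resistant line, with an adjusted p of 3.27e-05. The parental call was lost under quantile normalization (0.73, adjusted p 0.0979), which also moved the median of all genes from 0.21 to -0.04. The difference between lines in tumors was -0.21 ± 0.14, with an adjusted p of 0.252. In bulk tissue, a different share of cells and a different RNA level per cell cannot be told apart. The tumors also carried host transcripts: the summed level of 10 leukocyte markers was 284 to 855 TPM in parental tumors and 205 to 351 TPM in resistant ones, against at most 3.75 TPM in any culture. That of 11 skin keratinocyte markers was 1.46 to 104 and 0.741 to 20.3 TPM, led in parental tumors by Krtdap, which was at 0 in every culture. Their part in the Cdh1 level was not tested.

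Krt7 and Krt8 are type II keratins, and Krt18 and Krt19 are type I keratins. A filament needs 1 of each type, and these 4 are found in the pairs of simple, single-layered epithelium. Summed over the 4 genes, the level was 0 to 5.77 TPM in parental tumors, 0.167 to 2.95 in resistant tumors, 0.360 to 1.43 in parental culture and 0 to 0.125 in resistant culture. Krt8 stayed below 1 TPM in all 32 libraries and was listed at 0 in 7 of 13 parental tumors, 8 of 12 resistant tumors and all 5 resistant cultures. It is also the least certain of the 10, since 26.9% of its 50-base stretches are shared with the pseudogene Krt8-ps. The share was at most 0.720% for any other member.

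Krt19 differed between the cultures with no overlap, at 0.314 and 0.996 TPM in parental cultures and 0, 0, 0, 0.0685 and 0 TPM in resistant cultures. It did not reach the expression filter there. With no filter its difference was -0.68, with an adjusted p of 0.0329 by limma, at levels where no library passed 1 TPM. Krt18 was listed at 0 in both parental cultures and was 0.0594, 0.0605, 0.111, 0.0565 and 0 TPM in resistant cultures. Krt7 was 0 and 0.0734 TPM in parental cultures and 0 in all resistant ones. In tumors the 2 lines overlapped for each of the 4 keratins. Medians in parental and resistant tumors were 0.527 and 0.232 TPM for Krt7, 0.355 and 0.0655 TPM for Krt18, and 0.306 and 0.179 TPM for Krt19. The order of these medians was not tested. For Krt7 the 4 highest parental tumors were replicates 2, 3, 7 and 8, at 1.75 to 2.50 TPM, and the others held at most 1.03 TPM. Between parental tumors and parental culture, the log2 differences of Krt7 (0.70 ± 0.47 SE), Krt18 (0.45 ± 0.35) and Krt19 (-0.10 ± 0.40) did not pass, with adjusted p-values by limma of 0.299, 0.365 and 0.873.

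Within parental tumors the partners Krt18 and Krt8 varied together. Replicates 2, 8 and 12 held the 3 highest values of both, at 1.46, 0.962 and 1.39 TPM of Krt18 and 0.621, 0.444 and 0.360 TPM of Krt8. Pearson's r was 0.88 (n = 13; adjusted permutation p 0.00492 over 12 relations) and Spearman's rho was 0.78 (adjusted permutation p 0.0190). Without the 2 tumors farthest from the median r was 0.74. Since 7 of the 13 Krt8 values are 0, this rests on few transcripts. In resistant tumors r was -0.07 (n = 12; adjusted permutation p 0.973). The balance of type I to type II keratins, as a log2 ratio, was 0.78 ± 2.54 (SD) in the 12 parental tumors where both types were above 0 and 0.51 ± 1.78 in 9 such resistant tumors. The difference of -0.27 was within this spread (exact permutation p 0.792, two-sided).

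Of 14 listed keratins outside the simple pairs, 4 could be tested in tumors and 3 of these passed the test, where 30.2% of all genes did. All 3 averaged under 1 TPM in resistant tumors and reached the filter of 1 TPM in 12 tumors mainly through the parental ones, so the choice of genes favours a fall, and nothing is read from the count. Krt80, a type II keratin, fell from 2.76 ± 2.17 to 0.393 ± 0.169 TPM (SD, n = 13 and 12), by 1.29 on the log2 scale (adjusted p 1.60e-05). Krt16 fell from 3.16 ± 2.49 to 0.639 ± 0.50 TPM and Krt17 from 3.72 ± 3.16 to 0.900 ± 0.597 TPM (adjusted p 0.000126 and 0.00724). The last pair is known from stressed and wounded epidermis, and the median sum of the skin keratinocyte markers was 12.1 TPM in parental tumors and 2.78 TPM in resistant ones. Their part in the fall was not tested. In culture Krt80 was 11.5 ± 4.18 TPM in the parental line (n = 2) and 0.558 ± 0.770 in the resistant line (n = 5), a difference of -3.08 (adjusted p 0.00220). Krt20, a keratin of intestinal epithelium, was 2.75 against 0.0215 TPM (-1.85, adjusted p 0.00366). These were 2 of 3 keratins tested there (14.2% of all genes passed), and both reached the filter of 1 TPM in 2 libraries through the parental cultures.

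Sprr1b, a small proline-rich protein cross-linked into the cornified envelope of squamous cells, was the one epithelial member with a clear level, and only in parental culture. The 2 parental cultures held 44.9 and 24.8 TPM. The 5 resistant cultures held 1.74, 0.274, 0, 0.449 and 0 TPM, all below both parental values. The line difference in culture was -4.64 ± 0.42 (SE), with an adjusted p of 0.000316 by limma, the 8th lowest of 11201 genes tested. Parental tumors ran from 0 through 0.600 to 7.06 TPM and resistant tumors from 0 to 1.67 TPM, with 8 of 12 at 0, and these ranges overlapped. The parental line held 27.9 times less in tumors (mean 1.25 TPM) than in culture (34.9 TPM), and no parental tumor reached either culture. That difference of -4.27 ± 0.62 (adjusted p 4.76e-05) was the lowest of all 14348 genes tested. The line difference therefore depended on the setting: tumors minus culture, the difference of differences was 4.08 ± 0.63 (adjusted p 4.78e-05).

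Its relative Sprr1a passed between the lines in tumors and not in culture, and no test compared the 2 genes. Sprr1a was the only one of 12 other cornified envelope genes high enough to test in tumors. It fell from 17.6 ± 16.3 TPM in parental tumors to 1.47 ± 1.21 TPM in resistant tumors (-2.50 ± 0.41, adjusted p 4.46e-05 by limma). In culture the lines held 7.5 ± 8.07 (n = 2) and 6.85 ± 10.6 TPM (n = 5). The difference of -0.48 ± 0.99 (SE, adjusted p 0.791 by limma) turned to 0.69 without parental culture replicate 2. Msln, the mesothelin gene, ran parallel to Sprr1b in culture. Parental culture held 34.6 ± 3.11 TPM of it and resistant culture 0.750 ± 0.816 TPM (adjusted p 0.000261), and it also fell between the tumors, from 5.05 ± 2.15 to 0.770 ± 0.404 TPM (adjusted p 1.58e-07). In both settings Msln averaged under 1 TPM in the resistant line and reached the filter mainly through the parental libraries, so its choice favours a fall.

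The mesenchymal members were read in every library, and each behaved differently between the lines: Zeb1 rose, Cdh2 fell, and Vim passed in neither setting. Of the 4 members tested in tumors, 2 passed the test, where 30.2% of all genes tested passed. In culture 3 of 4 passed, against 14.2% of all genes, and 1 of these, Sprr1b, reached the filter through the parental cultures, where it was high.

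**Figure D2:**
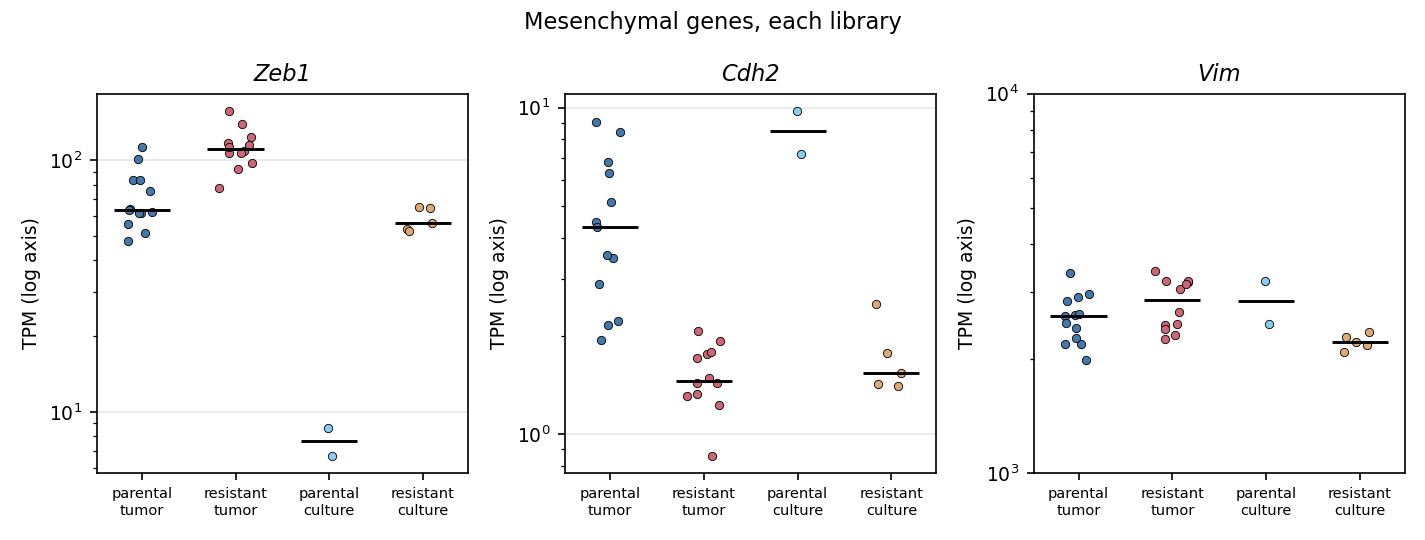
Mesenchymal genes in every library, in TPM on log axes of different range. Points are libraries and bars are group medians. Zeb1 in the 2 parental cultures (6.71 and 8.66 TPM) lies below all other libraries, Cdh2 is lower in both resistant groups, and Vim lies between 1989 and 3413 TPM throughout.

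Cdh2 encodes N-cadherin, the mesenchymal and neural cadherin. Parental cultures held 7.24 and 9.79 TPM and resistant cultures 1.54, 2.50, 1.4, 1.78 and 1.42 TPM, with no overlap. The parental mean was 4.92 times the resistant one. Parental tumors ran from 1.95 through a median of 4.31 to 9.03 TPM and resistant tumors from 0.862 through 1.46 to 2.07 TPM. All 12 resistant tumors lay below the parental mean, although the lowest parental tumor fell inside the resistant range. The line difference was -1.06 ± 0.18 (SE) in tumors (adjusted p 6.59e-05 by limma) and -1.80 ± 0.26 in culture (adjusted p 0.00270). The gap between the 2 settings, 0.74 ± 0.39, did not pass (adjusted p 0.394). Resistant tumors and resistant cultures lay within each other's spread, at 1.53 ± 0.34 and 1.73 ± 0.46 TPM (difference -0.11, adjusted p 0.569), although under quantile normalization the difference was -1.09 (adjusted p 6.71e-06). The parental gap of -0.85 between tumors and culture had an adjusted p of 0.155, and 0.0431 in 1 fit over all 32 libraries.

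Zeb1, the EMT repressor, had the largest line difference of the 3 mesenchymal members in culture. Parental cultures held 6.71 and 8.66 TPM, and resistant cultures 56.3, 53.3, 64.8, 65.3 and 52.5 TPM, 7.61 times more on average. Parental tumors ran from 47.7 through 63.4 to 113 TPM and resistant tumors from 77.4 through 111 to 158 TPM, 1.59 times more on average. All 12 resistant tumors exceeded the parental mean of 71.2 TPM, but the ranges overlapped. In rising order the groups were parental culture, resistant culture, parental tumors and resistant tumors. Of these, resistant culture and parental tumors shared much of their range.

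The line difference of Zeb1 was 2.78 ± 0.17 (SE) in culture (adjusted p 6.70e-05 by limma), the 38th highest of 11201 genes, and 0.68 ± 0.13 in tumors (adjusted p 0.000188). Tumors exceeded cultures by 3.02 ± 0.26 in the parental line (adjusted p 1.01e-07) and by 0.93 ± 0.13 in the resistant line (adjusted p 4.57e-06). Among the 8 members tested in the parental line, 3 passed (22.1% of all genes tested), and among 4 in the resistant line 3 passed (50.3%). Cdh1 is in both counts and reached the filter through the tumors, where it was higher. The line difference was smaller in tumors than in culture, by 2.10 ± 0.28 (adjusted p 3.52e-06). Zeb1 and Sprr1b were the 2 of 8 members whose line difference differed between the settings, against 4.01% of all 15061 genes tested. These comparisons share libraries and are not independent of each other. Markers of host cell types did not all go the same way between the lines. All 9 fibroblast markers had a mean of 1 TPM or more in both tumor groups. Their sum was 229 to 1527 TPM in parental tumors and 716 to 2088 TPM in resistant ones. In culture it was 74.9 to 120 and 264 to 839 TPM, where Dcn alone averaged 4.24 and 589 TPM, while Col3a1 fell, from 41.8 and 58.2 TPM in the 2 parental cultures to 10.2 ± 6.01 TPM in the resistant ones (adjusted p 0.0133 by limma). The sum of 6 pericyte markers was 47.3 to 177 TPM in parental tumors and 218 to 344 TPM in resistant ones. In culture, without host cells, that sum was 5.13 to 6.36 TPM in the parental line and 19.6 to 35.6 TPM in the resistant line. Pdgfrb led it, at 5.14 and 20.7 TPM (adjusted p 0.00126 by limma), while Rgs5 did not pass (adjusted p 0.0810). Between the tumors of the lines, 30.2% of all genes tested by limma passed. Of 9 leukocyte markers tested 6 were lower in resistant tumors, and of 8 endothelial markers none passed. The endothelial sums were 77.7 to 157 TPM in parental tumors and 63.5 to 146 TPM in resistant ones. The part of these cells in the Zeb1 difference was not tested.

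Vim encodes vimentin, the intermediate filament of mesenchymal cells. Parental cultures held 2467 and 3207 TPM, and resistant cultures 2355, 2082, 2168, 2211 and 2276 TPM, all below both parental values. The difference of -0.34 ± 0.14 (SE) had an adjusted p of 0.131 by limma. Parental tumors ran from 1989 through 2594 to 3358 TPM and resistant tumors from 2253 through 2858 to 3413 TPM, with nearly the same range. Their difference was 0.13 ± 0.09 (adjusted p 0.294). Vim ranked between 21st and 52nd of all genes in every library and made up 0.199% to 0.341% of all TPM. Resistant tumors exceeded resistant cultures by 0.33 ± 0.11 (adjusted p 0.0169), a call lost with median-of-ratios scaling (0.20, adjusted p 0.141). Parental tumors differed from parental cultures by -0.14 ± 0.18 (adjusted p 0.581).

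The Vim result in tumors moved with an index computed from the same expression values. Each library was given a GC index, the median log2 deviation of GC-rich genes from their mean over all tumors minus that of GC-poor genes. The index was itself related to Ptprc, a leukocyte gene. Pearson's r was -0.74 in parental tumors and -0.63 in resistant tumors (adjusted permutation p 0.0191 and 0.0437). Spearman's rho was -0.77 and -0.61 (adjusted permutation p 0.0140 and 0.103). A technical property and leukocyte content therefore cannot be told apart in the index. The index was above 0.5 in 4 parental tumors (replicates 2, 3, 7 and 8) and in no resistant tumor. Those 4 held the highest Vim of the parental tumors, 2844 to 3358 TPM, and the other 9 held 1989 to 2629 TPM. With the index as a covariate the line difference was 0.28 (adjusted p 0.00375), and without these 4 tumors it was 0.24 (adjusted p 0.0492). The Zeb1 and Cdh2 calls in tumors held under both. Vim did not pass in the other 32 of its 34 alternatives. Over all 34 its line difference ran from 0.0078 to 0.28, with adjusted p-values by limma up to 0.946. Krt17 gave -0.80 with an adjusted p of 0.0503 when the index was a covariate. The 4 parental tumors of high index also held the highest Krt7 of the parental tumors, 1.75 to 2.50 TPM.

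In resistant tumors Vim was lower where Ptprc, the pan-leukocyte gene CD45, was higher. Pearson's r was -0.89 and Spearman's rho -0.86 (n = 12; adjusted permutation p 0.00168 and 0.00936 over 12 relations), and r was -0.92 without the 2 tumors farthest from the median. The values leave a gap: 7 tumors held 19.7 to 22.9 TPM of Ptprc and 2655 to 3413 TPM of Vim, and 5 held 29.0 to 50.3 TPM of Ptprc and 2253 to 2470 TPM of Vim. The points are thus not spread evenly, and no relation was tested within either set. After the GC index was taken out of both genes r was -0.80 (adjusted permutation p 0.00720). In parental tumors r was -0.59 and rho -0.60 (n = 13; adjusted permutation p 0.139 and 0.135), r was -0.61 without the 2 tumors farthest from the median, and r was 0.07 after the GC index (adjusted permutation p 0.848). Whether the relation differs between the lines was not tested. The remaining relations computed in each line, Krt19 with Krt7, Epcam with Cdh1, Zeb1 with Vim and Krt8 with Epcam, did not pass.

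**Figure D3:**
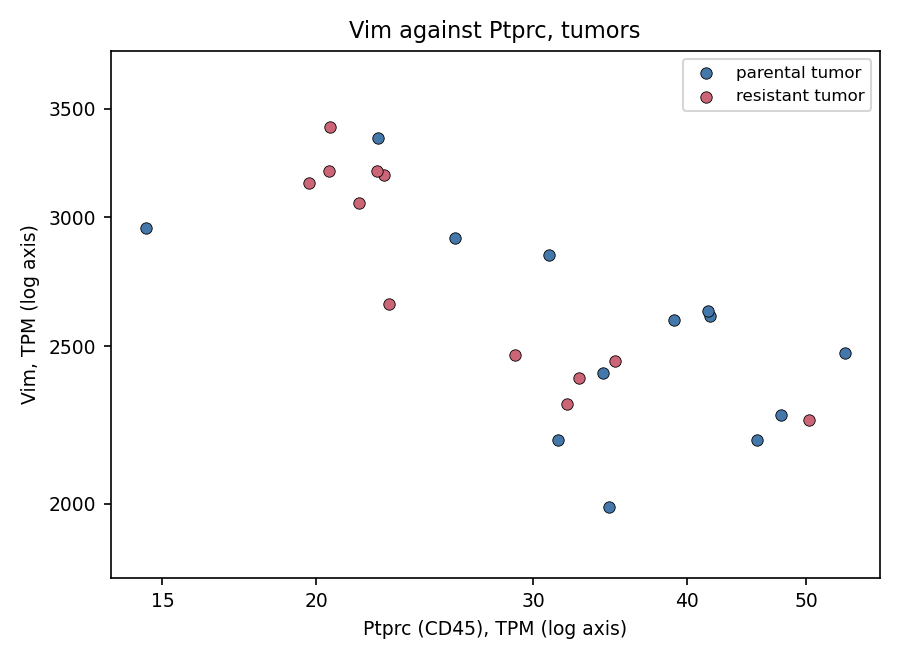
Vim against Ptprc (CD45) in the 25 tumors, both in TPM on log axes; each point is 1 tumor. The 7 resistant tumors with the least Ptprc lie at 2655 TPM of Vim and above, and the other 5 at 2470 TPM and below.

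The genes whose tumor-to-tumor variation was most like that of Vim, after each line's mean was removed, were Gcc1 (r = 0.89), H1f0 (0.88) and Arfgap3 (0.88). Those most like Zeb1 were Frmd4a (0.87), Nrip1 (0.81) and Ppp2r3a (0.80). These are descriptions over 25 tumors and 9460 genes, which share library composition. Frmd4a averaged 89.0 and 129 TPM in parental and resistant tumors and 26.9 and 74.3 TPM in the respective cultures, the same order of lines as Zeb1.

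The other transcription factors of EMT included several at over 50 TPM in tumors of both lines, among them Prrx1, Tcf4 and Zeb2. Of 12 listed, 10 were tested, and Snai3 and Foxc2 were not analysed here. In culture 4 rose, 1 fell and 5 did not pass, where 14.2% of all genes passed, with a median of 0.31 against -0.01 for all genes tested. A fit that leaves out 1 of the 2 parental cultures has 1 library in that group, and far fewer of all genes then passed. Prrx1, a homeobox factor of mesenchyme, rose from 16.9 ± 4.32 TPM (n = 2) to 169 ± 34.3 TPM (n = 5), by 3.24 ± 0.22 (SE) on the log2 scale (adjusted p 0.000120 by limma). Sox9 rose from 34.0 ± 10.2 to 106 ± 8.06 TPM (adjusted p 0.000688, and 0.0589 in 1 fit over all libraries). Snai1, the Snail repressor, went from 65.7 ± 1.84 to 131 ± 21.8 TPM (adjusted p 0.00652), and Snai2, the Slug repressor, went the other way, from 12.2 ± 0.393 to 3.36 ± 1.11 TPM (adjusted p 0.00546). Both calls were lost when either parental culture was left out, with adjusted p-values up to 0.0637 and 0.0587. Tcf4 was the fourth that rose, by 1.01 (adjusted p 0.0231), a call likewise lost when either parental culture was left out (adjusted p 0.187 and 0.0728) and with no filter (0.0527). It is named here after its value was seen. In tumors Tcf4 rose from 107 ± 26.2 to 162 ± 30.9 TPM (adjusted p 0.000483), Prrx1 was 90.9 ± 17.7 and 111 ± 16.3 TPM (adjusted p 0.0258), and 8 did not pass. These 2 of 10 stand beside 30.2% of all genes. The Prrx1 call in tumors was lost without the 4 parental tumors of high GC index (adjusted p 0.0613) and without resistant tumor replicate 7 (adjusted p 0.0517). Zeb2, the paralog of Zeb1, was 108 ± 28.4 and 129 ± 15.7 TPM in tumors (adjusted p 0.0899), and its difference in culture was 0.30 (adjusted p 0.510).

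**Figure D4:**
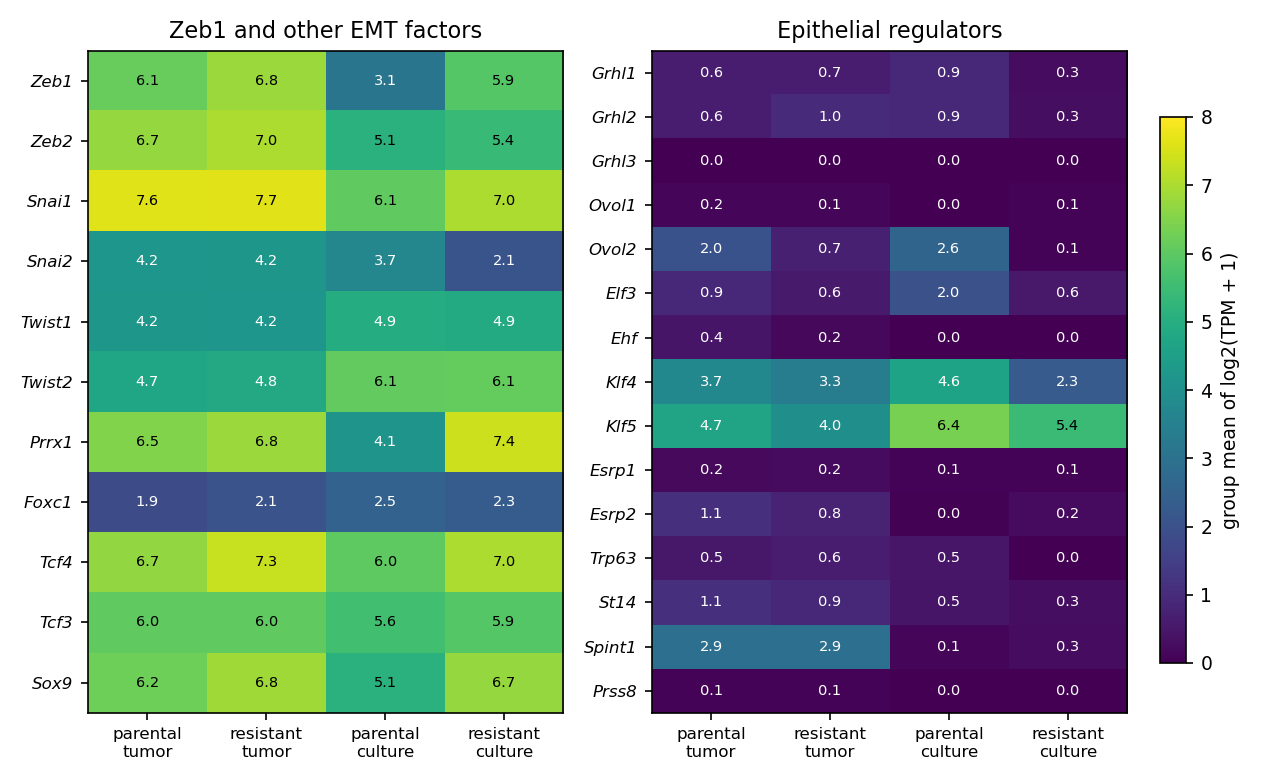
Group means of log2(TPM + 1) for Zeb1 with the other EMT factors (left) and for epithelial regulators (right); rows are genes and columns are groups. Zeb1 and Prrx1 are lowest in parental culture, and most epithelial regulators are low in all groups; in parental culture Klf5, Klf4 and Ovol2 are the highest.

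Of 15 listed factors that maintain epithelial identity, 4 reached the filter in culture and passed the test, where 14.2% of all genes did. Ovol2 and Elf3 reached it through the parental cultures, where they were higher, so nothing is read from the count. Klf4, a Krüppel-like factor of differentiating epithelium, fell from 24.1 ± 1.09 to 4.07 ± 1.39 TPM (adjusted p 0.00126 by limma). Ovol2, a zinc finger repressor of Zeb1, fell from 5.06 ± 1.87 to 0.0667 ± 0.149 TPM (adjusted p 0.00126). Klf5 fell from 81.2 ± 9.06 to 42.6 ± 4.02 TPM (adjusted p 0.00476), a call lost without parental culture replicate 1 (adjusted p 0.0531) and in 1 fit over all libraries (adjusted p 0.201). Elf3 was 2.92 ± 0.267 and 0.534 ± 0.542 TPM (adjusted p 0.0315), lost in 5 of 7 fits that left out 1 culture, with adjusted p-values up to 0.153. In tumors 6 were tested and 2 fell, close to the 30.2% of all genes that passed. Ovol2 fell from 3.71 ± 2.73 to 0.899 ± 1.16 TPM (adjusted p 0.00190). Its mean was under 1 TPM in resistant tumors, so the filter favours a fall here too, and nothing is read from this count. Klf5 was 28.0 ± 16 and 15.6 ± 5.58 TPM (adjusted p 0.0242), but the call was lost without the 4 tumors of high GC index (-0.29, adjusted p 0.243), while Klf4 then passed (-0.53, adjusted p 0.0406).

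Junction genes were also mostly too low to test. In tumors 5 of 22 could be tested, and none fell. Of all 12095 genes tested there, 30.2% passed and 1678 were lower, so nothing is read from this count. The scaffold gene Tjp1 averaged 49.8 ± 7.60 TPM in parental tumors and 59.9 ± 5.62 TPM in resistant ones (adjusted p 0.0172 by limma). Without the 4 tumors of high GC index it did not pass (adjusted p 0.110). In culture 3 of 6 tested passed, where 14.2% of all genes did. All 3 reached the filter through the parental cultures, so nothing is read from that count either. The claudin genes Cldn6 and Cldn1, which seal tight junctions, stood at 6.33 ± 2.38 and 1.93 ± 0.298 TPM in parental culture and were listed at 0 in all 5 resistant cultures (adjusted p 0.000509 and 0.00630). Ocln, for occludin, was 1.39 and 0.0160 TPM (adjusted p 0.0226), lost in 3 of 7 fits that left out 1 culture: parental replicate 2 and resistant replicates 3 and 4, with adjusted p-values up to 0.107.

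Catenins and related proteins join cadherins to the cytoskeleton, and other partners bind EpCAM in the membrane. Of 9 listed partners 8 were tested. In culture 2 of 8 fell, where 14.2% of all genes passed. Of these, Jup averaged under 1 TPM in resistant culture and reached the filter through the parental cultures, so nothing is read from the count. Jup, for plakoglobin, the catenin of both adherens junctions and desmosomes, fell from 17.8 ± 0.860 to 0.546 ± 0.782 TPM (-3.72 ± 0.40 SE, adjusted p 0.000705 by limma). Vcl, for vinculin, was 71.2 ± 2.35 and 42.3 ± 8.39 TPM (adjusted p 0.0361), lost in 4 of 7 fits that left out 1 culture. In tumors 2 passed upward and 1 downward, near the 30.2% of all genes that passed. These were Cd9, a tetraspanin bound by EpCAM, at 353 ± 101 and 496 ± 136 TPM (adjusted p 0.0203), Ctnnb1, for beta-catenin, at 154 ± 13.9 and 175 ± 17.7 TPM (adjusted p 0.0469), and Jup, at 18.5 ± 8.16 and 11.4 ± 4.39 TPM (adjusted p 0.0307). Each of these 3 lost its call with the GC index as a covariate, with adjusted p-values of 0.198, 0.103 and 0.156, and Ctnnb1 and Jup also in 15 and 6 of 25 fits that left out 1 tumor.

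Other mesenchymal genes did not move in 1 direction. Of 20 listed, 18 were tested in tumors, 5 rose, 4 fell and 9 did not pass, where 30.2% of all genes passed. The median was 0.27 against 0.04 for all genes. S100a4, a calcium-binding protein also called fibroblast-specific protein, fell from 1169 ± 335 to 216 ± 49.2 TPM (-2.41 ± 0.15 SE, adjusted p 1.34e-12 by limma). Ncam1, the neural cell adhesion molecule, fell from 42.5 ± 28.8 to 4.63 ± 1.30 TPM (adjusted p 4.20e-09), and Axl, a receptor kinase, from 263 ± 66.2 to 158 ± 34.3 TPM (adjusted p 0.000156). Tnc, for the matrix protein tenascin C, rose from 36.6 ± 8.40 to 78.5 ± 19.2 TPM (adjusted p 1.14e-06). In culture 8 were tested, 2 rose and 2 fell, where 14.2% of all genes passed. Tnc averaged under 1 TPM in parental culture and reached the filter through the resistant cultures, where it was higher. Ncam1 was 60.8 ± 9.62 and 3.68 ± 5.08 TPM, S100a4 was 2840.4 ± 65.6 and 529 ± 559 TPM, Tnc was 0.315 ± 0.204 and 3.62 ± 1.43 TPM and Itga5 was 16.5 ± 1.37 and 30.8 ± 5.01 TPM (adjusted p 0.00546, 0.0160, 0.0151 and 0.0186). All 4 calls were lost when either parental culture was left out, which leaves 1 parental library, and far fewer of all genes then passed. Over the 7 fits that left out 1 culture, the log2 differences ran from -4.74 to -3.94 for Ncam1 and -3.35 to -2.71 for S100a4. They ran from 1.59 to 1.97 for Tnc and 0.77 to 0.93 for Itga5.

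**Figure D5:**
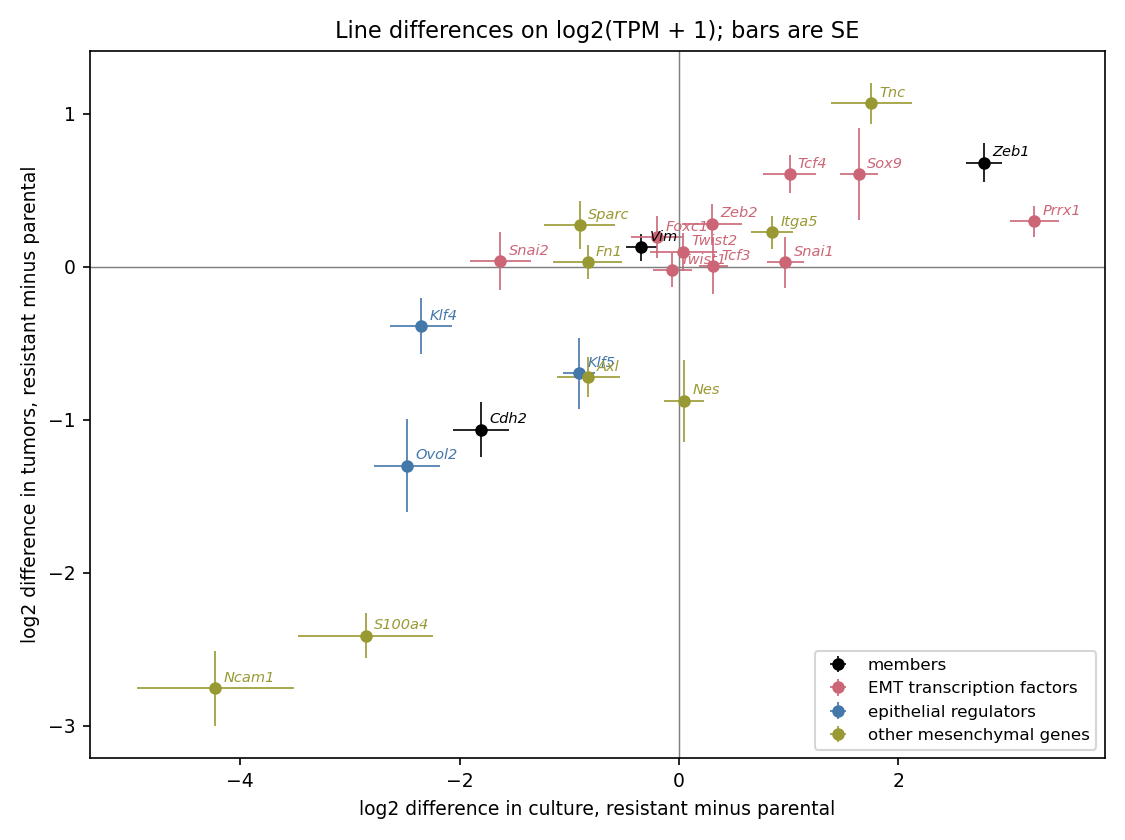
Line differences, resistant minus parental, on log2(TPM + 1), in culture (horizontal) and in tumors (vertical), for the genes tested in both. Bars are SE. Zeb1 lies far to the right and modestly up, at 2.78 and 0.68, and Cdh2 lies left and down, at -1.80 and -1.06.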

How the data were processed

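The authors deposited 1 table of TPM by gene symbol for 32 libraries, per the file headers. Per the labels' protocols, Qiagen extraction with DNase came before KAPA RNA HyperPrep library preparation. STAR and GRCh38 are named in the submitters' processing notes, without role or version. That build is human, the symbols are those of mouse, and the quantifier and annotation are not given in the sources used here. Depth per sample is unknown, and precision rests on the spread between libraries. A listed 0 can be a failed estimate: 2 genes with a median of at least 20 TPM in parental tumors were at 0 in a library.

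Groups came from the labels. Replicates were numbered in deposition order. Each comparison was fitted with limma 3.58.1 (R 4.3.3) to log2(TPM + 1) values with an intensity trend, two-sided, and Benjamini-Hochberg adjustment over all genes tested, at 0.05. Tested genes reached 1 TPM in no fewer libraries than the smaller group has. The difference of differences used all 32 libraries. Fold changes understate those of low genes. Permutation tests used 100000 resamples or were exact.

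The members and lists were chosen with earlier results of these data known, so adjusted p-values are over all genes and lists are described by counts. The text names all 10 members, at most the 4 genes of lowest adjusted p per list and line comparison, and the 3 genes most like Vim and Zeb1, the members that averaged 5 TPM or more in a tumor group. The GC index compares genes of over 0.55 with those of under 0.42 GC, from GENCODE mouse transcripts. The comparison of keratin proteins was not run, and 1 result among the junction genes is not reported here. Alternatives were another pseudocount, filter and scaling, covariates, and leaving out each library.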

Additional observations from a re-analysis of the deposited data

Results flagged for a closer look

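The line difference of Sprr1b was -4.64 in culture and both tumor groups were low, and the signed difference of differences, tumors minus culture, was 4.08 on the log2 scale (adjusted p 4.78e-05 by limma). That of Zeb1 was lower by 2.10 in tumors than in culture (difference of differences -2.10, adjusted p 3.52e-06 by limma): 2.78 in culture and 0.68 in tumors. Among the 5 resistant cultures, Sprr1b in replicate 1, at 1.74 TPM, stood apart from the rest, with a gap of 0.742 of the whole range. How often such a gap arises by chance at levels this low was not tested, and 2 of the 5 values were 0. Leaving out this culture raised the genes called by limma between the cultures from 1590 to 2122 of 11201. Leaving out any other resistant culture gave 1030 to 1350. The part of this culture in the spread of other genes was not tested.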

How the results depend on the processing

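No paired analysis was possible because the labels give no pairing and replicates were numbered in deposition order. The Zeb1 and Cdh2 calls in both line comparisons, that of Sprr1b in culture, and those of Zeb1 and Sprr1b for the difference between settings, held under every alternative that could be fitted. With a filter at 5 TPM, 1 member rather than 2 was called in tumors, because Cdh2 was no longer tested. The following changed sign, none of them called. The type I to type II keratin balance ran from -0.61 to 0.13 when 1 tumor was left out. Between parental tumors and culture, Krt19 ran from -0.40 to 0.20 and Vim from -0.33 to 0.045 when 1 library was left out. With quantile normalization the difference between settings became 0.13 for Cdh1 and 0.13 for Krt7. In culture, Krt10 ran from -0.64 to 0.14 and Sprr1a from -1.65 to 0.69 when 1 library was left out. In tumors, St14 became 0.059 with the GC index as a covariate. The relation of Ptprc and Vim in parental tumors became 0.069 after the GC index. Without the 4 parental tumors of high GC index, the EMT factors had 1 rise rather than 2. The mesenchymal list then had 7 rises and 3 falls. In that fit 3342 of all 12095 genes tested by limma passed, against 3647 with all tumors. Those list counts and the alternatives for list genes were chosen after seeing the data. Quantile normalization moved the median of all genes in the resistant tumor against culture comparison from 0.18 to -0.10. Leaving out 1 of 2 parental cultures assumes that the other varies like the resistant ones. Unknown depth limits what can be said of values under 1 TPM.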
